A study of Bos taurus with 6 samples.

Results

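Wide but low-scoring H3K4me3 regions of bovine blastocysts were stretches that peaks covered broadly in each replicate without reaching a high peak score. The peaks of the 3 replicates were pooled, and peaks that overlapped or touched were joined into 24746 regions, of which 16851 held a peak in all 3 replicates. The 16231 of these on autosomes are called shared regions. A shared region was kept when peaks covered at least 2000 bp and under 5000 bp of it in each replicate and its highest peak score was under 800 in each. This left 329 regions, which were 2.03% of the shared regions and 4.89% of the 6733 shared regions of that width. The remaining regions of that width comprised 5369 with a score of 800 or more in each replicate (wide high-scoring) and 1035 that lay on both sides of the ceiling in different replicates (wide mixed). A further 4027 shared regions were narrower than 2000 bp and scored under 800 in each replicate (narrow low-scoring). The members were thus chosen by their covered width and highest score, so these values are given as a description without a test.

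The embryos were Bos taurus blastocysts produced by IVF and cultured in mSOF medium with bovine serum albumin under 5% oxygen. They were collected on day 8, at 192 h after IVF, as 3 biological replicates of approximately 11 pooled, unsexed embryos each, which the paper describes as a mixture of early to hatched blastocysts. There were fewer independent IVF rounds than replicates, so some replicates shared a round, and the SDs and tests over replicates do not take this into account. Each replicate gave 1 ChIP-seq library made with 3 µg of antibody against H3K4me3, and its peaks were called against an input library of the same chromatin. All samples belonged to a single condition, and trophectoderm and inner cell mass were not separated, so a region marked in part of the cells and a region marked weakly in all of them cannot be told apart. The lists of the 3 replicates held 22404, 19076 and 22060 peaks, but no read counts, so the depth behind a single peak was not analysed here. Every score is that of the peak caller for the H3K4me3 library against its input. It moves with library depth, so raw scores are given for each list and the order of the lists was read from percentiles within each list.

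H3K4me3 is the trimethylated form of lysine 4 of histone H3. It is written by the SET1 and MLL methyltransferase complexes, is read by subunits of the basal transcription machinery among others, and is found chiefly at active and CpG-rich promoters, where it flanks the nucleosome-free start site. In pluripotent cells it also occurs together with the repressive mark H3K27me3 at promoters of developmental genes. Broad stretches of H3K4me3 are known from mammalian oocytes and early embryos. Gene models and sequence of UMD 3.1.1 were not used here, so the regions are named by position and none was assigned to a gene or promoter.

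The members were of medium rather than extreme width. Peaks covered a median of 2892 bp of a member in replicate 1, with a lowest value of 2001 bp and a highest of 4934 bp. In replicate 2 the median was 2414 bp, between 2001 and 4490 bp. In replicate 3 it was 2488 bp, between 2000 and 4861 bp. Members were thus widest in replicate 1, which had the greatest covered width of the 3 replicates in 226 of the 329 members, whereas replicate 2 had the smallest in 171. The wide high-scoring regions were somewhat wider within the same bounds, with medians of 3316, 2887 and 2970 bp in replicates 1, 2 and 3.

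The highest score of a member had a median of 540.1 in replicate 1, between 69.9 and 798. For replicate 2 it was 253, between 55.0 and 799. For replicate 3 it was 459.6, between 73.9 and 789. As percentiles of the respective lists, the medians were 46.6, 36.8 and 45.0, and replicate 2 held the lowest percentile of the 3 lists in 224 of the 329 members. Scores under 800 made up 52.6%, 57.7% and 53.8% of all peaks of replicates 1, 2 and 3, so the ceiling separated the lower from the upper part of each list and not a small weak fraction. Members scored above the narrow low-scoring regions, whose median percentiles were 35.0, 23.4 and 33.4, and below the wide high-scoring ones, at 90.4, 78.9 and 82.0. Within the set, the order of the members was only loosely shared between lists. Across the 329 members Spearman's rho of the covered width was 0.459 for replicates 1 and 2, 0.484 for replicates 1 and 3 and 0.428 for replicates 2 and 3, and that of the score was 0.346, 0.393 and 0.494. These are descriptions across regions of the same 3 libraries, and the bounds on both measures limit the range over which they could vary.

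**Figure D1:**
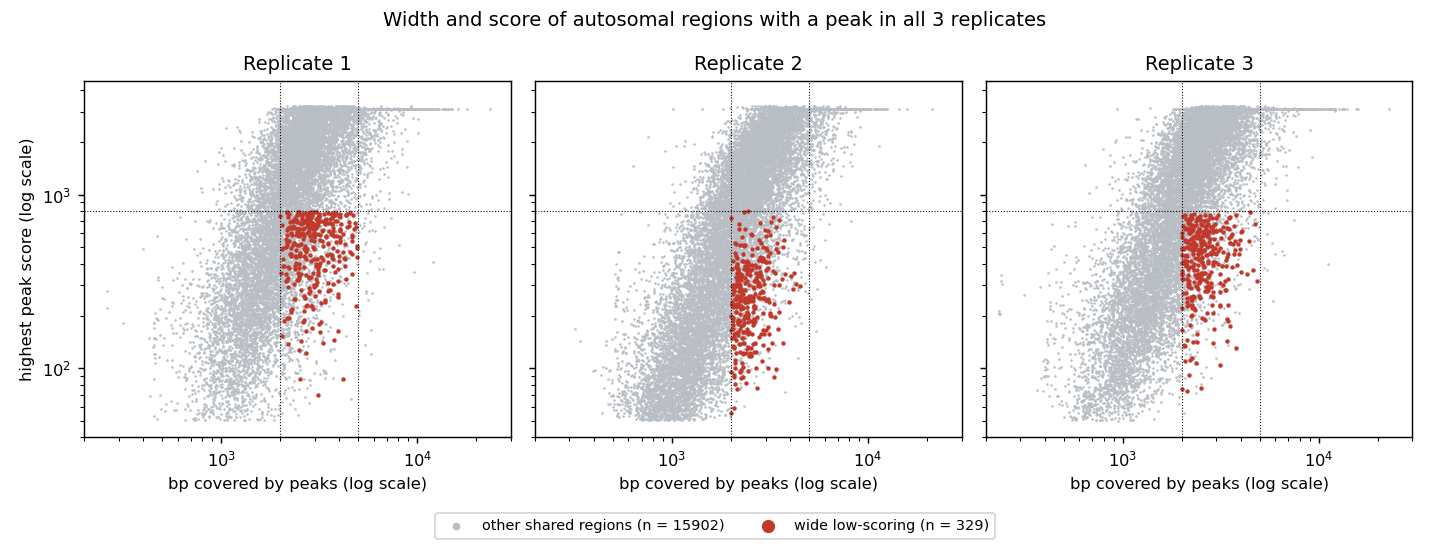
Bp covered by peaks (x axis, log scale) against the highest peak score (y axis, log scale) of the 16231 autosomal shared regions in replicates 1, 2 and 3. Red points are the 329 members, grey points all other shared regions and dotted lines the bounds of 2000 bp, 5000 bp and a score of 800. The members form the lower right fringe of a cloud in which wider regions mostly scored higher, with median scores of 540.1, 253 and 459.6 in replicates 1, 2 and 3.

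Around the bounds, regions on both sides had much the same values. Just under the score ceiling lay chr3:21145763-21148613, with highest scores of 676, 799 and 559 in replicates 1, 2 and 3, chr15:75882443-75885220, with 798, 545 and 613, and chr18:2235268-2238250, with 797, 582 and 736. Just above it lay chr10:6602941-6605604, with scores of 800.4, 302 and 510.1, chr5:29093294-29096598, with 204, 277 and 801, and chr13:76592282-76596876, with 802, 388 and 757. The regions outside the ceiling were therefore left out for a single replicate each.

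At the lower width bound, chr19:30363109-30366160 was kept with 3052, 2462 and 2000 bp in replicates 1, 2 and 3, chr23:31471675-31475333 with 3659, 2001 and 2410 bp, and chr28:24844563-24846805 with 2001, 2243 and 2003 bp. The regions chr20:8108403-8111171 (2769, 1999 and 2117 bp), chr13:41030534-41033461 (2849, 1997 and 2251 bp) and chr22:12965896-12968642 (2747, 2267 and 1997 bp) fell short by at most 3 bp in 1 replicate. At the upper bound, the highest values inside were 4934 bp at chr19:11949941-11955384, 4930 bp at chr14:78563930-78568866 and 4901 bp at chr25:37727873-37732773, all in replicate 1. Just outside were chr3:30684040-30689063, with 5012, 4750 and 4660 bp, chr27:16715290-16720313, with 5024, 3349 and 3719 bp, and chr16:61167797-61172828, with 5032, 4269 and 3862 bp. No low-scoring shared region reached 5000 bp in all 3 replicates, and 26 reached it in at least 1 while staying over the lower bound in the others.

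The bounds were also applied in 2 replicates at a time and checked in the remaining one, among the shared regions, which hold a peak in all 3 lists by definition. When the bounds were applied in replicates 2 and 3 alone, 557 shared regions passed and 329 of them (59.1%, 95% Wilson interval 54.9 to 63.1) also met the bounds in replicate 1, where 10.3% of all shared regions did. With replicate 2 held out, 329 of 643 (51.2%, 47.3 to 55.0) passed against 11.3% of all shared regions. With replicate 3 held out, 329 of 566 (58.1%, 54.0 to 62.1) passed against 6.63%. The mean share was 56.1% ± 4.32 (SD, n = 3 held-out replicates), over shared regions only. The intervals cover counting error only, and the comparison is a description, since a region has related values in the 3 lists.

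The bound that was missed differed between replicates. In replicate 1, 194 of the 228 regions that failed had a score of 800 or more, 29 were covered over 5000 bp or more and 15 under 2000 bp, with 10 of these failing both a width bound and the ceiling. In replicate 2, 312 of the 314 regions that failed were too narrow and 2 scored too high. In replicate 3, 164 of 237 were too narrow and 82 scored too high, with 1 too wide and 10 failing both. The chosen regions had a median covered width of 2948, 2026 and 2281 bp when replicate 1, 2 or 3 was the held-out list. In addition, 52 regions met the bounds in replicates 1 and 3 and held no peak at all in replicate 2, against 5 without a peak in replicate 3 and 1 without a peak in replicate 1, and these were not members because the rule asks for a peak in each list. Counted as not meeting the bounds, they lowered the shares to 329 of 558 (59.0%), 329 of 695 (47.3%, 43.7 to 51.1) and 329 of 571 (57.6%) with replicates 1, 2 and 3 held out, a mean of 54.6% ± 6.36 (SD, n = 3).

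The members were divided into several peaks more often than other regions of their width. In replicate 1, 306 of the 329 members (93.0%, 95% Wilson interval 89.7 to 95.3) were called as 1 peak, where 98.1% of all shared regions were. In replicate 2 this held for 267 members (81.2%, 76.6 to 85.0) against 96.0% of all shared regions, and in replicate 3 for 254 members (77.2%, 72.4 to 81.4) against 93.9%. The mean was 83.8% ± 8.23 (SD, n = 3), compared with 97.8% ± 1.42 in wide high-scoring, 92.2% ± 4.08 in wide mixed and 99.4% ± 0.423 in narrow low-scoring regions. In each replicate the interval of the members lay below those of the 3 other sets. Each peak is scored on its own, so a stretch that is divided can also score lower for that reason, and the shares are given without a test. Restricting the wide sets to regions covered over 2000 to under 3000 bp in each replicate left 172 members, of which 94.8%, 87.8% and 83.1% were called as 1 peak in replicates 1, 2 and 3, against 99.8%, 99.5% and 98.7% of 1696 wide high-scoring regions.

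Few members were divided in all 3 libraries, a count that the joining of peaks into regions limits. Of the 329 members, 219 (66.6%) were called as 1 peak in all 3 replicates, 66 were divided in exactly 1 replicate, 38 in 2 and 6 in all 3. A gap at the same place in all 3 lists would have split the stretch into separate regions. These counts therefore do not show how well division was reproduced. Among wide high-scoring regions, 94.6% were called as 1 peak throughout. Replicate 1 bridged most of the stretches that the other lists broke up. Of the 110 members divided in at least 1 list, 2 were divided in replicate 1 alone, 28 in replicate 2 alone and 36 in replicate 3 alone. A further 23 were divided in replicates 2 and 3 but not in replicate 1. This order of the lists was not particular to the members. Over all shared regions, 98.1%, 96.0% and 93.9% were called as 1 peak in replicates 1, 2 and 3. The pattern over the 3 lists was not counted for all shared regions. The gaps inside divided members were short, with medians of 132.5, 170.5 and 129 bp in replicates 1, 2 and 3 and a longest gap of 1608 bp. The peaks of a divided member were also unequal, the highest score being 2.30, 2.21 and 2.31 times the next (medians in replicates 1, 2 and 3). Divided members scored lower than those called as 1 peak, with medians of 388, 199 and 343 in replicates 1, 2 and 3 against 546, 268 and 484. Division bears on the score, which the rule also used, so these medians are a description. Peaks also covered more of the divided members, with medians of 3135, 2720 and 2619 bp against 2880.5, 2363 and 2467.5 bp.

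**Figure D2:**
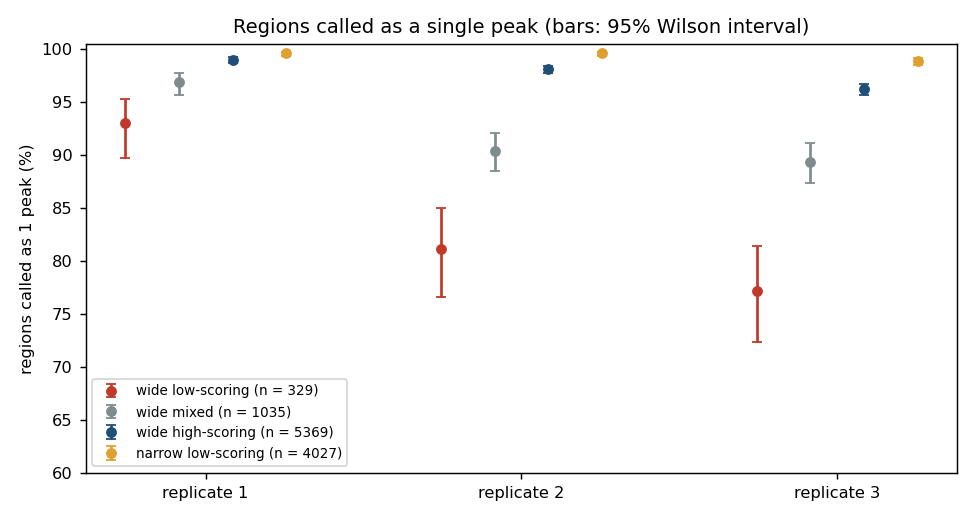
Percentage of regions called as 1 peak (y axis, starting at 60%) in replicates 1, 2 and 3 (x axis), with 95% Wilson intervals as bars. The 329 members lie lowest in each replicate, at 93.0%, 81.2% and 77.2%, while narrow low-scoring regions stay at or above 98.9%.

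The widest members show how the same stretch was called in different libraries. The widest, chr14:78563930-78568866, was a single peak in each replicate and covered 4930, 4203 and 4741 bp in replicates 1, 2 and 3, a mean of 4625 bp ± 377 (SD, n = 3). Its scores were 491, 352 and 680.2, and its starts differed little between replicates, whereas replicate 2 ended earlier. The next, chr20:22083673-22089135, covered 4635, 4124 and 4640 bp with scores of 454, 287 and 366, and was divided in replicate 2 only. At chr24:47408738-47413602 the covered widths were 4341, 4490 and 4021 bp and the scores 764, 297 and 356. This region was a single peak in replicate 1 and was divided into 2 peaks in replicates 2 and 3. At chr20:36629580-36634423 replicate 2 held 3236 bp in 2 peaks with a score of 140.4, beside 4815 and 4450 bp and scores of 688 and 789 in replicates 1 and 3. At chr19:11949941-11955384 the 3 lists held 2, 1 and 4 peaks and covered 4934, 2605 and 4861 bp, so that the SD of the covered width was 1324 bp. In 4 of these 5 regions the division differed between replicates.

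**Figure D3:**
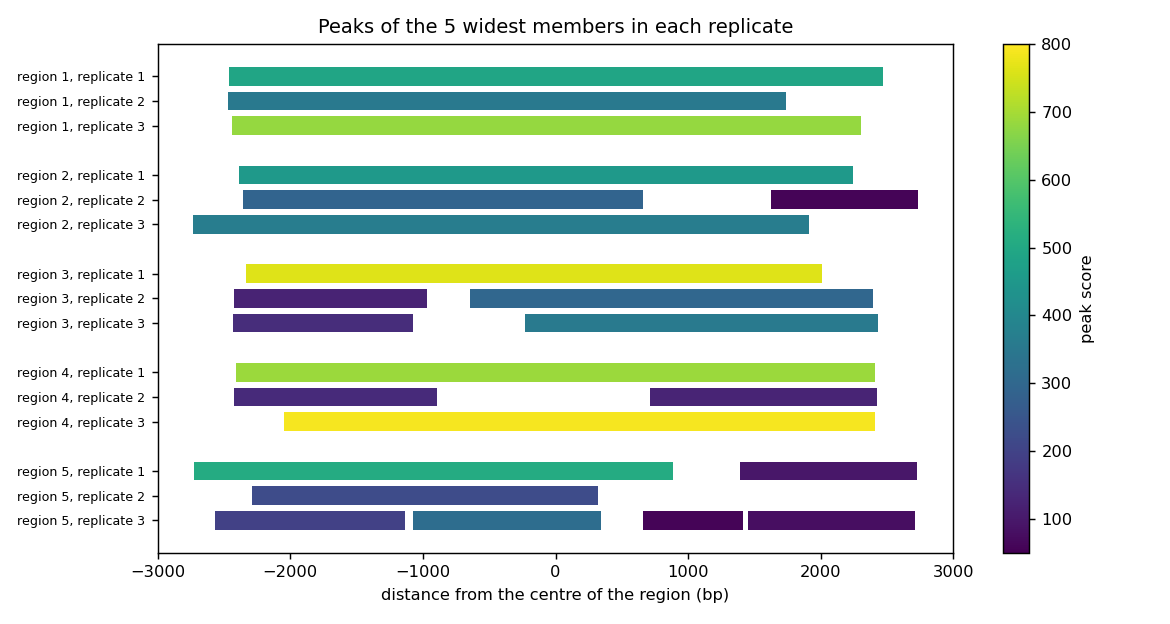
Peaks of the 5 widest members in replicates 1, 2 and 3 (rows), drawn by distance from the centre of the region in bp (x axis) and coloured by peak score. Regions 1 to 5 are those on chromosomes 14, 20, 24, 20 and 19 in the order of the text. Only region 1 is a single peak in each row, and region 4 is broken in replicate 2 alone.

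The members with the lowest scores were not the widest. The lowest mean percentile, 16.1 ± 4.62 (SD, n = 3), was found at chr13:76691079-76693724, with scores of 86.5, 111 and 73.9 and covered widths of 2519, 2100 and 2128 bp in replicates 1, 2 and 3. It was followed by chr9:95893413-95897691, at 19.1 ± 3.51, which was divided in replicates 1 and 3, and by chr10:25678436-25681100, at 19.7 ± 14.7. The percentiles of chr10:25678436-25681100 were 25.2, 3.06 and 31.0, so its low rank rested on replicate 2. The region chr4:17508189-17511191 had a mean percentile of 20.5 ± 6.85 and chr5:30706254-30709131 one of 21.7 ± 17.1, the latter with scores of 333, 58.8 and 109. In their weakest replicate these 5 regions scored between 55.0 and 86.1, where the lowest score of any peak was 50 after rounding, and yet were covered over 2000 bp or more in each replicate.

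Between replicates, the outer edges of the members lay farther apart than those of the other sets, with median offsets that were small beside the covered width. The median offset of an edge was 234 bp for replicates 1 and 2, 206 bp for replicates 1 and 3 and 197 bp for replicates 2 and 3, a mean of 212 bp ± 19.3 (SD over the 3 pairs of replicates). In wide high-scoring regions the same offsets were 199, 177 and 153 bp, and in all shared regions 199, 169 and 152 bp, lower in each pair. At least 1 edge differed by over 1 kb in 39 members (11.9%, 95% Wilson interval 8.79 to 15.8) between replicates 1 and 2, in 32 (9.73%) between replicates 1 and 3 and in 23 (6.99%, 4.70 to 10.3) between replicates 2 and 3. The shares in wide high-scoring regions were 5.18%, 3.41% and 2.12%, those in wide mixed regions 8.12%, 5.31% and 3.86% and those in all shared regions 8.21%, 5.59% and 4.16%. The bp that both replicates covered made up a median of 79.4%, 82.7% and 81.7% of the bp that either covered in the members, against 85.9%, 87.5% and 88.4% in wide high-scoring and 75.4%, 78.6% and 77.2% in narrow low-scoring regions. The members lay between these 2 sets in each pair. The pairs share replicates, so no test was made. The closest agreement was seen at chr7:95450974-95453605, where no edge moved by more than 75 bp between any 2 replicates, at chr26:22745535-22748270 with 88 bp, chr19:48416024-48418387 with 92 bp, chr12:49343599-49345909 with 93 bp and chr9:85916363-85918556 with 102 bp. The scores of chr7:95450974-95453605 were 795, 256 and 595. This region was also a single peak in replicates 1 and 3 and divided in replicate 2.

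The position of a region was not used by the rule. The distance from the outermost peaks of a region to the nearest other peak of the same list had medians of 10767, 14770 and 11216 bp for the members in replicates 1, 2 and 3, a mean of 12251 bp ± 2193 (SD, n = 3). In wide high-scoring regions the medians were 18305, 22737 and 19377 bp, a mean of 20140 bp ± 2312. The members thus lay nearer to another peak than these in 3 of 3 replicates, by 7889 bp ± 319 (SD of the difference, n = 3). Wide mixed regions lay between both sets, with medians of 14494, 20269 and 15794 bp, and the members were nearer than these by 4601 bp ± 886 (SD, n = 3). Another peak lay within 10 kb of 160 members (48.6%, 95% Wilson interval 43.3 to 54.0) in replicate 1, where this held for 42.8% of all shared regions. The count was 138 (41.9%, 36.7 to 47.3) in replicate 2, against 36.2% of all shared regions, and 152 (46.2%, 40.9 to 51.6) in replicate 3, against 40.8%. Wide high-scoring regions had such a peak in 34.9%, 29.6% and 33.6%, which was 12.9 percentage points ± 0.752 (SD, n = 3) fewer. In wide mixed regions the shares were 43.3%, 36.3% and 41.3%, which was 5.30 points ± 0.338 fewer than in the members, and the intervals of the 2 sets overlapped in each replicate. The exact paired permutation test over the 3 replicates, two-sided, gave p = 0.25 for each of the 4 comparisons of distance or share with the wide high-scoring and narrow low-scoring sets (Benjamini-Hochberg adjusted p = 0.25). No smaller p can be had with 3 replicates, so this design cannot pass the usual threshold whatever the size of a difference.

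The difference was smaller among the narrower of these regions. Among regions covered over 2000 to under 3000 bp in each replicate, 43.6%, 37.8% and 41.3% of the 172 members had a peak within 10 kb, against 36.4%, 32.5% and 35.9% of the 1696 wide high-scoring regions. The difference was then 5.95 percentage points ± 1.06 (SD, n = 3), and the intervals of the members and the wide high-scoring regions overlapped in each replicate. The median distance differed by 3420 bp ± 2632 in that band, where it was 18813 bp for members and 19193 bp for wide high-scoring regions in replicate 2. Restricting both sets to regions called as 1 peak in each replicate left the difference in share at 13.0 points ± 2.27. Joining peaks at most 1000 bp apart brought the difference in median distance, members minus wide high-scoring regions, from -7889 to -4570 bp. These restrictions were chosen after the data had been seen.

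The members differed less from the narrow low-scoring regions. The medians of that set were 12111, 16147 and 13105 bp in replicates 1, 2 and 3, longer than in the members by 1537 bp ± 306 (SD, n = 3), and the share with a peak within 10 kb was 2.28 points ± 0.0258 lower. In each replicate the 95% intervals of these shares overlapped. The number of other shared regions centred within 100 kb had a median of 3 for the members (mean 4.17), compared with 2 for wide high-scoring (mean 3.57) and narrow low-scoring regions (mean 3.49) and 3 for all shared regions (mean 3.64). No other shared region was centred within 100 kb of 46 members (14.0%, 10.6 to 18.1), against 15.4% of all shared regions.

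Some members stood far from any other peak. The farthest was chr14:19703065-19706103, at 987401, 1031516 and 1031477 bp from the nearest peak in replicates 1, 2 and 3, with a score of 228, 187 and 429. At chr28:37098750-37102118 the distances were 973175, 973529 and 973060 bp, and this region was divided into 2 peaks in each replicate. The region chr2:81274151-81277231 followed at 629484 to 630738 bp, chr28:12246655-12249303 at 584006 to 584277 bp and chr4:63304318-63307296 at 480143 bp in replicate 1, where a peak lay nearer than in replicates 2 (819354 bp) and 3 (819105 bp). These 5 regions were therefore called at the same place in 3 lists without other peaks around them. More than 100 kb separated 9.73%, 11.6% and 11.2% of the members from the nearest peak in replicates 1, 2 and 3, close to the 10.7%, 13.4% and 11.6% of all shared regions.

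**Figure D4:**
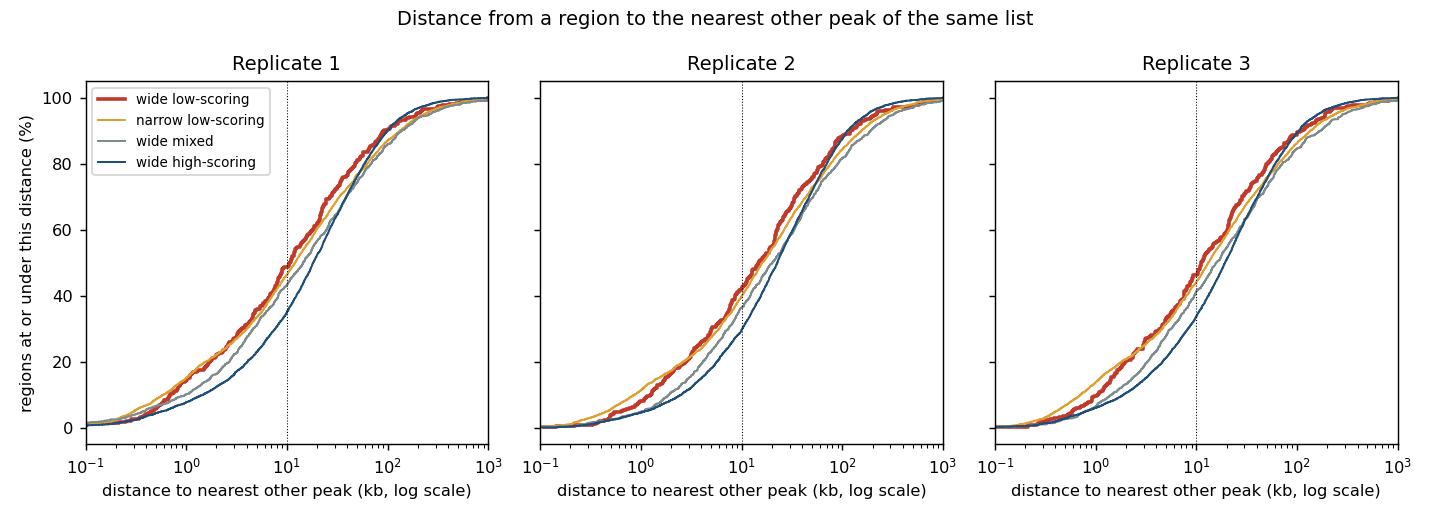
Percentage of regions (y axis) at or under a given distance to the nearest other peak of the same list (x axis, kb, log scale) in replicates 1, 2 and 3. The dotted line marks 10 kb, where the curve of the members (red) stands at 48.6%, 41.9% and 46.2%. That of the wide high-scoring regions (dark blue) stands at 34.9%, 29.6% and 33.6%. These 2 curves come together beyond 100 kb.

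The peaks next to the members scored 800 or more slightly less often than those next to all shared regions, by 2.46 points ± 0.897 (SD, n = 3). The nearest other peak had a score of 800 or more for 45.0%, 41.3% and 44.1% of the members in replicates 1, 2 and 3, against 52.6%, 48.3% and 52.2% for wide high-scoring, 44.9%, 40.4% and 44.2% for wide mixed and 47.8%, 42.8% and 47.2% for all shared regions. The median width of that neighbour was 2216, 2039 and 1825 bp for the members and 2237, 2077 and 1958 bp for the wide high-scoring regions. The neighbours of members were thus of much the same median width and scored 800 or more in a smaller share, 7.54 points ± 0.598 (SD, n = 3) below that of the wide high-scoring regions. From the wide mixed regions they differed by 0.309 points ± 0.560, which was within the spread between replicates.

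Very wide neighbours were more frequent beside the members. The nearest peak was 5000 bp or wider for 40 members (12.2%, 95% Wilson interval 9.06 to 16.1) in replicate 1 and for 30 (9.12%, 6.46 to 12.7) in replicate 2. The lowest count, 22 (6.69%, 4.46 to 9.92), was found in replicate 3. In wide high-scoring regions the shares were 6.09%, 3.24% and 3.32%, in wide mixed regions 5.22%, 2.90% and 2.80%, in narrow low-scoring regions 4.25%, 2.41% and 2.33% and in all shared regions 5.84%, 3.28% and 3.20%. The interval of the members lay above those of the wide high-scoring and wide mixed regions in each replicate. The mean was 9.32% ± 2.74 (SD, n = 3) for the members and 4.22% ± 1.62 for the wide high-scoring regions, higher for the members in 3 of 3 replicates (exact paired permutation test over the replicates, two-sided, p = 0.25, the smallest possible). Within the band of 2000 to under 3000 bp the shares were 11.6%, 9.30% and 6.98% for the members and 5.96%, 3.13% and 3.13% for the wide high-scoring regions. Joining peaks at most 500 bp apart brought the difference from 5.11 to 3.05 points, and leaving out replicate 1 or replicate 3 brought it to 3.32 or 3.87 points. This comparison was chosen after the data had been seen.

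In 15 members (4.56%, 2.78 to 7.39) the nearest peak was 5000 bp or wider in all 3 replicates, against 85 of the 5369 wide high-scoring regions (1.58%, 1.28 to 1.95). This held for 255 of the 16231 shared regions (1.57%, 1.39 to 1.77), 1.16% of wide mixed and 1.12% of narrow low-scoring regions. The 3 of the 15 members with the shortest summed distance, picked out after their values were seen, stood close beside their neighbour. At chr14:1716258-1718923 the distance was 437, 434 and 213 bp in replicates 1, 2 and 3, and the neighbour was 6126, 5907 and 6041 bp wide with scores of 3100, 2053 and 3100. At chr21:71383003-71386538 it was 1564, 491 and 609 bp, beside a peak of 6479, 5919 and 6106 bp. At chr6:93492363-93496312 it was 564, 1549 and 583 bp, beside a peak of 8447, 8548 and 9136 bp with a score of 3100 in each list, a value that many of the strongest peaks shared. The scores of these 3 members were at most 643, where the rule asks for a score under 800 in each list. A peak that joined such a stretch to its strong wide neighbour in any list would have excluded it. That they were not joined in any of the lists therefore follows from the rule. The other 12 lay farther off, up to 57154 bp from that peak. The second widest member, chr20:22083673-22089135, was also among the 15, at 4388, 4679 and 5602 bp from a peak of 8936, 7965 and 7877 bp.

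The members were spread over all 29 autosomes, with too few on each to show whether their share of the shared regions was even. Each autosome held between 5 members (chromosomes 6 and 26) and 23 (chromosome 3). Per shared region the share was lowest on chromosome 6, 5 of 466 (1.07%, 95% Wilson interval 0.459 to 2.49), and highest on chromosome 27, 7 of 192 (3.65%, 1.78 to 7.33). The intervals of all 29 autosomes included the overall share of 2.03%, so no chromosome stood apart at these counts. Chromosomes 18, 19, 23 and 25, which carry the densest peaks, held 65 members (19.8%, 15.8 to 24.4) and 19.3% of all shared regions. Of 300 pairs of consecutive members on a chromosome, 3 were within 10 kb and 17 within 100 kb, and the median distance was 3694200 bp. The members were only 2.03% of the shared regions, and no other set of that size was compared. It was therefore not shown whether this spacing sets them apart. The closest pairs were chr25:2608302-2610821 with chr25:2616053-2619825, 5231 bp apart, chr9:102856642-102859390 with chr9:102867050-102870807, 7659 bp apart, and chr1:95173524-95176424 with chr1:95184730-95187498, 8305 bp apart. A peak within 10 kb of a member was seldom part of another member, which the small size of the set limits.

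**Figure D5:**
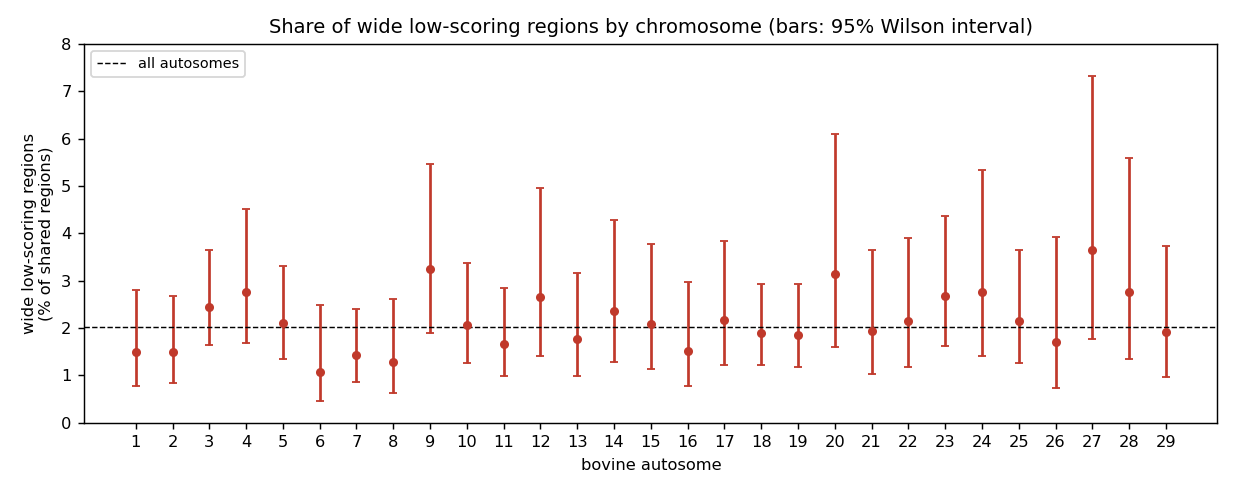
Members as a percentage of the shared regions of each bovine autosome (y axis, with 95% Wilson intervals) for chromosomes 1 to 29 (x axis), with the share over all autosomes, 2.03%, as a dashed line. The interval of each chromosome includes the dashed line, from 1.07% on chromosome 6 to 3.65% on chromosome 27.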

How the data were processed

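H3K4me3 ChIP-seq peak lists of 3 replicates of bovine blastocysts were used as deposited. The authors aligned single-end reads to UMD 3.1.1 (bosTau8) without scaffolds with Bowtie (1.2.3 in the submitters' processing notes), took out duplicates with Picard, and ran the MACS peak caller separately for each replicate with the matching input as control. The deposited score has no stated scale and resembles a transformed p-value. The lists hold no read counts and the read totals of the libraries were not used here, so single peaks carry no error.

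Python 3.11.15 was used with pandas 2.3.3 for regions, covered bp and distances, with SciPy 1.17.1 and NumPy 2.4.6 for intervals and tests, and with Matplotlib 3.10.9 for plotting. No peak was filtered out. Positions are 1-based on UMD 3.1.1. Errors are SDs over replicates, and shares have 95% Wilson intervals for counting error alone. Distances and shares were compared by exact paired permutation (sign flips) over the 3 replicates, two-sided. A paired test of the share called as 1 peak had been planned and was not made, because division bears on the score. Regions are not replicates of the embryos. The counting was tested on simulated lists.

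The members and comparison sets were chosen with earlier results of these data known. The regions named are the 5 widest, the 5 lowest in mean score percentile, the 5 farthest from another peak, the 5 with the smallest edge offsets and the 3 nearest to each bound on either side. The members beside very wide peaks and the closest pairs of members were picked out after their values were seen. Input libraries, gene models, and the liver, muscle and RNA-seq data were not analysed here. Alternatives covered the score ceiling, the width bounds and measure, the joining of peaks, the replicates used and chromosome X.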

Additional observations from a re-analysis of the deposited data

How the results depend on the processing

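No paired analysis was possible between groups of samples because H3K4me3 and input are the only groups that share replicate numbers, and no input file was analysed here. The paired permutation tests given above set 2 kinds of region of the same list against each other. The members were nearer to another peak than wide high-scoring regions in all 14 alternatives of the distance (differences from -9871 to -3420 bp), in all 13 of the share within 10 kb (5.95 to 15.9 points) and in all 11 of the share with a nearest peak of 5 kb or wider (3.05 to 6.47 points). The share on chromosomes 18, 19, 23 and 25 stayed within its interval in all 8 (17.2% to 21.0%). The number of members depended on the bounds by construction. It was 164 with a score ceiling of 600, 505 with 1000, 210 with the median score of each list and 87 with a minimum of 2500 bp, and with a replicate dropped from the rule it ran from 552 (without replicate 1) to 685 (without replicate 2). The share called as 1 peak fell to 70.9% with peaks at most 500 bp apart joined, to 63.9% with 1000 bp and to 73.9% with a minimum of 2500 bp. The first 2 of these values follow from joining, which counts joined peaks as divided. The edge offset was 239 bp with a ceiling of 600, 162 bp in the band of 2000 to under 3000 bp, and 182 to 210 bp when a replicate was dropped. The mean share that met the bounds in a held-out replicate was 47.2% with a ceiling of 600 and 60.5% with 1000. The cause of the shifts in edge offset and held-out share was not tested. A region absent from a list was not detected at the depth of that library, and read totals were not used here.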

Other observations

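On chromosome X, which the rule leaves out, 12 of the 620 regions with a peak in all 3 replicates met the same bounds (1.94%, 95% Wilson interval 1.11 to 3.35), close to the 2.03% of the autosomes. Their median covered width was 2940, 2385 and 2292 bp in replicates 1, 2 and 3, and 11, 10 and 11 of them were called as 1 peak. The median distance to the nearest other peak was 61555, 65449 and 45513 bp, longer in each replicate than the 10767, 14770 and 11216 bp of the autosomal members. Neither the distance nor the share called as 1 peak was computed for all 620 regions. It was therefore not shown whether the 12 differ from other regions of chromosome X. The embryos were pooled and unsexed, and no test was made on these 12 regions.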
